A study of Danio rerio with 6 samples.

Results

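Zebrafish larvae at 72 hpf still live on yolk, and the lipid that leaves it travels in lipoproteins, particles of lipid wrapped by apolipoproteins. In the yolk syncytial layer, the liver and the gut, microsomal triglyceride transfer protein (the product of mttp) loads lipid on to apolipoprotein B, which forms the core protein of the largest particles. Smaller exchangeable apolipoproteins of the A, C and E classes coat those particles and HDL, and direct their lipolysis and uptake.

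The set described here was chosen by gene name and held 10 genes of this pathway: the A class genes apoa1a, apoa1b, apoa2 and apoa4a, the B class genes apobb.1 and apoba, the E class gene apoeb, the C class genes apoc1 and apoc2, and mttp. Of these, 8 had a row in the deposited counts. No row paired with apoba or apoc2, which were not analysed here. Because apoc1 had 2 RefSeq transcripts, the 8 genes were measured by 9 transcripts of the 15455 in the files, and all 9 passed the filter on low counts. Where a single transcript stands for apoc1, it is the more abundant NM_001291887.

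RNAseq libraries were made from embryos genotyped as double homozygous for mutations in hnrnpul1 and hnrnpul1l (hnrnpul1/1l mutants, n = 3 libraries) and from embryos genotyped as wild type (n = 3 libraries), each library from a pool of 8 embryos at 72 hpf. Tails had been cut off for genotyping, so that the RNA came from the head and trunk. By default the study worked with the ca54 allele of hnrnpul1 and the ca52 allele of hnrnpul1l, and its Results describe the sequenced mutants as lacking maternal as well as zygotic hnrnpul1l but only zygotic hnrnpul1. The wild types are described in the Results as coming from crosses between hnrnpul1l heterozygotes and in the Methods as siblings of the mutants, so a difference between the mothers of the groups cannot be told apart from the genotype of the embryos. Total counts were 40891309 to 62580215 per mutant library and 52250779 to 61266049 per wild-type library. hnrnpul1 itself lay at 22.1 to 47.7 CPM (counts scaled for depth, with library sizes adjusted by TMM) in mutants and 118.5 to 127 CPM in wild type, with every mutant pool below every wild type and a log2 fold change of -1.67 (standard error, SE, 0.30, adjusted p = 0.328 by edgeR and 0.000154 by DESeq2). No row paired with hnrnpul1l.

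The lipid transport genes did not separate the genotypes. By edgeR's quasi-likelihood fit over the whole table, 0 of the 9 transcripts had an adjusted p below 0.05 and 0 had an unadjusted p below 0.05. DESeq2 called 0 of them as well. Across all 13553 transcripts tested, 0% were called by edgeR at the adjusted threshold and 210 by DESeq2, while 8.79% had an unadjusted p below 0.05. In none of the 9 did all mutant pools lie on one side of all wild-type pools, whereas among all transcripts tested 9.08% lay entirely below wild type and 7.71% entirely above it. Of the 8 genes, 6 had a lower and 2 a higher estimate in mutants, where 50.9% of all transcripts were lower. The median log2 fold change of the 8 genes was -0.18, against -0.01 over all transcripts. In bulk RNA, fewer cells of a type and less RNA per cell cannot be told apart.

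**Figure D1:**
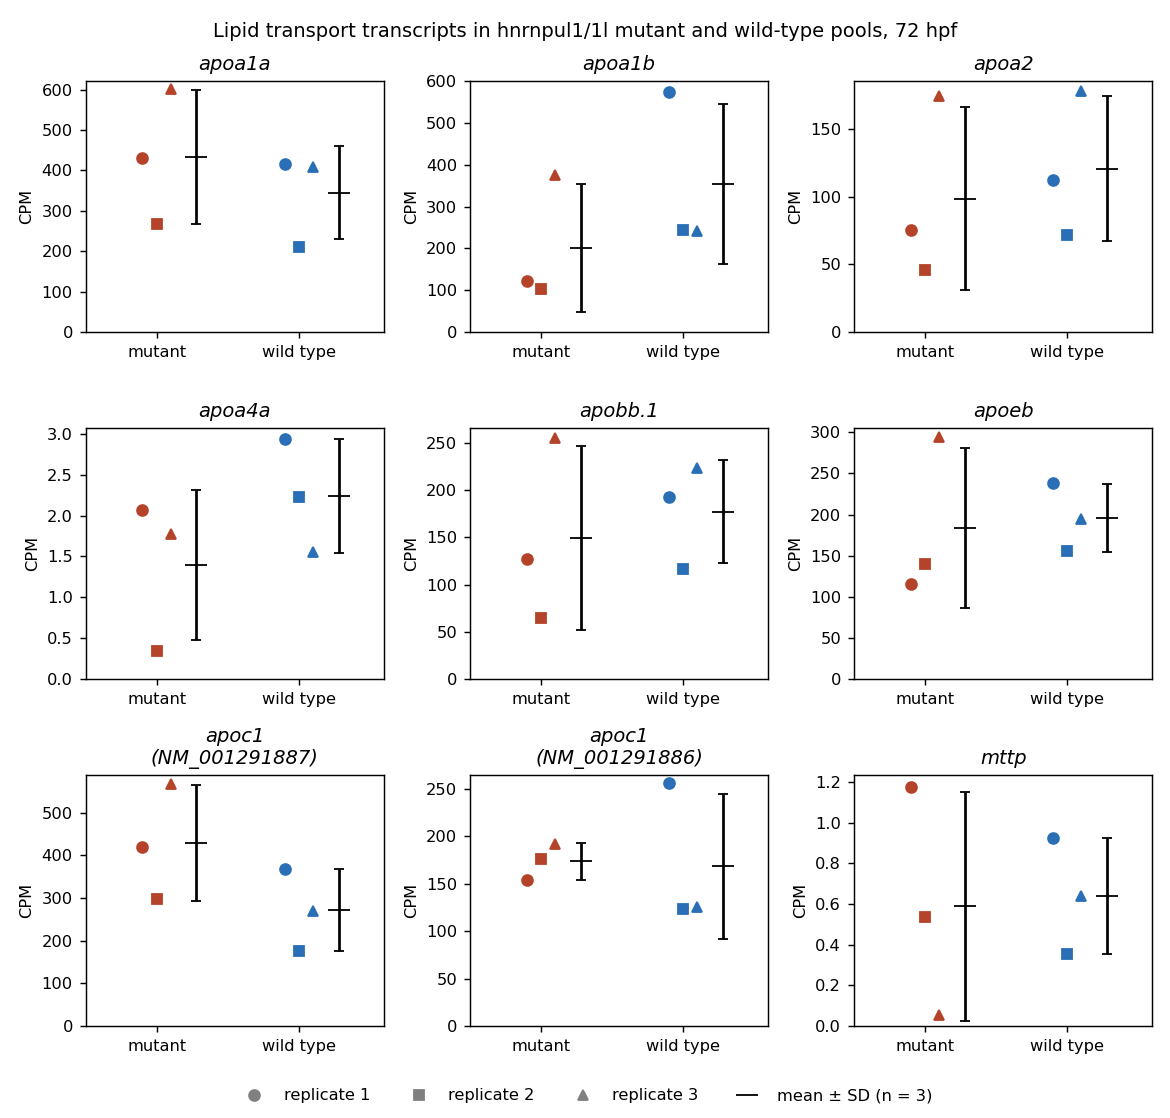
CPM (linear axes from 0) of the 9 lipid transport transcripts in each pool, with hnrnpul1/1l mutants on the left and wild types on the right of each panel, markers for replicates 1 to 3, and bars for the mean ± SD. Mutant and wild-type pools overlapped in every panel, and for apoa1b, apoa2 and apobb.1 mutant replicate 3 stood well above mutant replicates 1 and 2.

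apoa1a and apoa1b encode the copies of apolipoprotein A-I, the main protein of HDL, and their estimates differed in sign. apoa1a (NM_131128) had 430.3, 268 and 602 CPM in mutants, against 416, 211 and 408 CPM in wild type. Mutant replicates 1 and 3 were above the highest wild type, and mutant replicate 2 lay between wild types. The means were 433 ± 167 CPM in mutants and 345 ± 116 CPM in wild type (SD, n = 3 each), for a log2 fold change of 0.33 (SE 0.36, 95% interval -0.51 to 1.17, adjusted p = 0.886 by edgeR over all transcripts).

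For apoa1b (NM_001100144) the mutant pools had 122, 102 and 376 CPM and the wild-type pools 574, 244 and 241 CPM. Mutant replicates 1 and 2 lay below all wild types, but mutant replicate 3 was above wild-type replicates 2 and 3. The means were 199.9 ± 153 CPM in mutants and 353 ± 191 CPM in wild type (SD, n = 3 each). The log2 fold change of -0.82 (SE 0.56, 95% interval -2.12 to 0.48, adjusted p = 0.746 by edgeR) was the most negative of the set. It was -1.66 without mutant replicate 3 and -0.28 without wild-type replicate 1, the pools that lay apart in their groups.

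The apoa1a share of the counts of both copies was therefore also compared, a ratio chosen after its values were seen, and one that reflects transcript lengths as well as amounts. It was 78.0%, 72.4% and 61.5% in mutants, against 42.0%, 46.4% and 62.9% in wild type. Mutant replicate 3 and wild-type replicate 3 had nearly the same share and were the only pools that overlapped. The mean share was 70.6% ± 8.36 in mutants and 50.4% ± 11.0 in wild type (SD, n = 3 each), a difference of 20.2 percentage points. An exact two-sided permutation test of the 6 pools gives p = 0.2, where 0.1 is the smallest value that 3 pools against 3 can give. The apoa1a estimates were whole numbers in all 6 libraries, while those of apoa1b were fractional in all 6, which means that some reads assigned to apoa1b also matched another transcript.

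**Figure D2:**
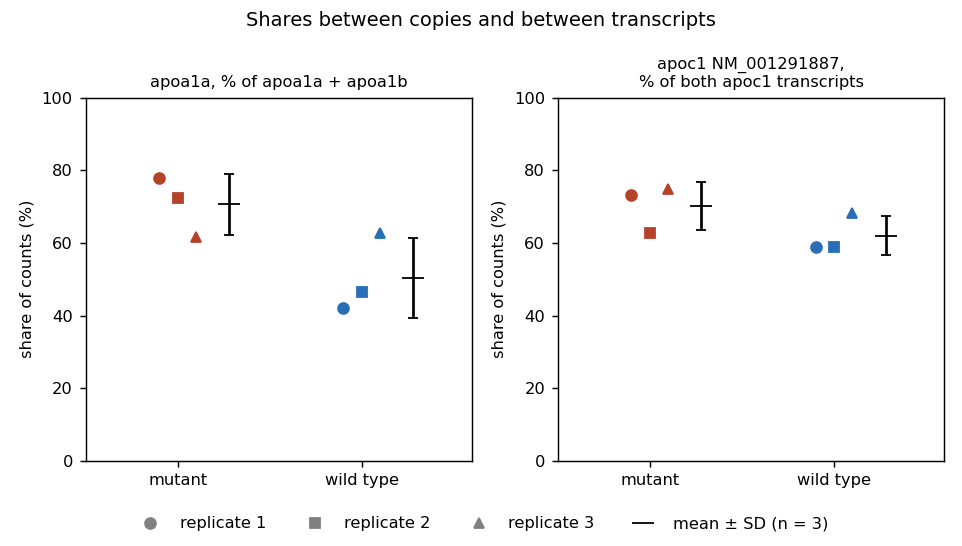
Share of counts (percent, axes from 0 to 100) taken by apoa1a out of apoa1a plus apoa1b (left) and by the apoc1 transcript NM_001291887 out of both apoc1 transcripts (right), per pool, with hnrnpul1/1l mutants left of wild types and bars for the mean ± SD. The apoa1a share averaged 70.6% in mutants and 50.4% in wild type, with mutant replicate 3 and wild-type replicate 3 overlapping, and the apoc1 share averaged 70.3% in mutants and 62.1% in wild type.

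apoa2 encodes a smaller HDL protein. Its transcript (NM_001130586) had 75.2, 45.7 and 175 CPM in mutants, against 113, 71.8 and 178 CPM in wild type. The groups overlapped, and mutant replicate 2 alone was below the lowest wild type. The means were 98.6 ± 67.7 CPM in mutants and 121 ± 53.8 CPM in wild type (SD, n = 3 each), for a log2 fold change of -0.29 (SE 0.51, 95% interval -1.48 to 0.89). It turned to 0.09 without mutant replicate 2 and to 0.10 without wild-type replicate 3.

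apobb.1 encodes an apolipoprotein B, and was the only B class gene measured. In mutants apobb.1 (NM_001030062) had 127, 64.5 and 255 CPM, against 192, 117 and 223 CPM in wild type. Mutant replicate 3 held the highest and mutant replicate 2 the lowest value of all 6 pools. The means were 149 ± 97.3 CPM in mutants and 177 ± 54.9 CPM in wild type (SD, n = 3 each), for a log2 fold change of -0.25 (SE 0.48, 95% interval -1.35 to 0.85). With mutant replicate 2 left out the estimate was 0.15, so its sign rested on that pool.

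apoeb encodes an apolipoprotein E, the ligand of receptors of the LDL receptor family, and in zebrafish is expressed in the yolk syncytial layer and in microglia. It had 115.5, 139.5 and 295 CPM in mutants, against 238, 155 and 194 CPM in wild type (NM_131098). Mutant replicates 1 and 2 lay below all wild types and mutant replicate 3 above all of them. With means of 183 ± 97.3 CPM in mutants and 196 ± 41.4 CPM in wild type (SD, n = 3 each), apoeb had a log2 fold change of -0.10 (SE 0.37, 95% interval -0.94 to 0.75). It was -0.62 without mutant replicate 3, but turned to 0.19 without mutant replicate 1, 0.11 without mutant replicate 2 and 0.07 without wild-type replicate 1.

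apoc1 encodes a small exchangeable apolipoprotein, which in mammals restrains lipolysis and lipid exchange between particles. Its more abundant transcript NM_001291887 had 420.4, 297 and 568 CPM in mutants, against 369, 177 and 269 CPM in wild type. Mutant replicates 1 and 3 were above all wild types, and mutant replicate 2 lay between wild-type replicates 1 and 3. The means were 428 ± 136 CPM in mutants and 272 ± 96.0 CPM in wild type (SD, n = 3 each). The log2 fold change of 0.66 (SE 0.33, 95% interval -0.12 to 1.43, adjusted p = 0.628 by edgeR) was the most positive of the set, and its unadjusted p of 0.0861 the smallest. Each pool left out in turn kept it positive, at 0.40 to 0.94.

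The other apoc1 transcript, NM_001291886, had 153.5, 176 and 192 CPM in mutants, against 256, 123 and 126 CPM in wild type, where wild-type replicate 1 stood above all other pools. Its log2 fold change was 0.05 (SE 0.31). NM_001291887 took 73.3%, 62.8% and 74.8% of the counts of both transcripts in mutants, against 59.0%, 59.0% and 68.2% in wild type. The difference of 8.20 percentage points had an exact two-sided permutation p of 0.2, and mutant replicate 2 lay below wild-type replicate 3. Both estimates were fractional in all 6 libraries, so the division of shared reads between the transcripts enters these shares. For both transcripts summed, the means were 602 ± 145 CPM in mutants and 440.1 ± 167 CPM in wild type (SD, n = 3 each), for a log2 fold change of 0.45 (SE 0.31, adjusted p = 0.724 by edgeR over 12778 genes).

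apoa4a and mttp had few counts in these libraries. apoa4a, a gene of the apolipoprotein A-IV class that coats particles made by the gut in mammals, had 123, 13 and 95 counts in mutants (2.07, 0.349 and 1.77 CPM), against 172, 119 and 104 counts in wild type (2.94, 2.23 and 1.55 CPM). Mutant replicate 2 stood far below the other 5 pools, among which the genotypes overlapped. The log2 fold change was -0.68 (SE 0.89, 95% interval -2.74 to 1.38).

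mttp had 70, 20 and 3 counts in mutants (1.18, 0.536 and 0.0560 CPM), against 54, 19 and 43 counts in wild type (0.923, 0.356 and 0.642 CPM). Mutant replicates 1 and 3 held the highest and the lowest value of all pools. Its log2 fold change of -0.12 had an SE of 1.48 and a 95% interval of -3.54 to 3.30. A difference of even several-fold in mttp would therefore not have been detected in these pools. How far few counts or the spread between pools set this width was not tested.

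**Figure D3:**
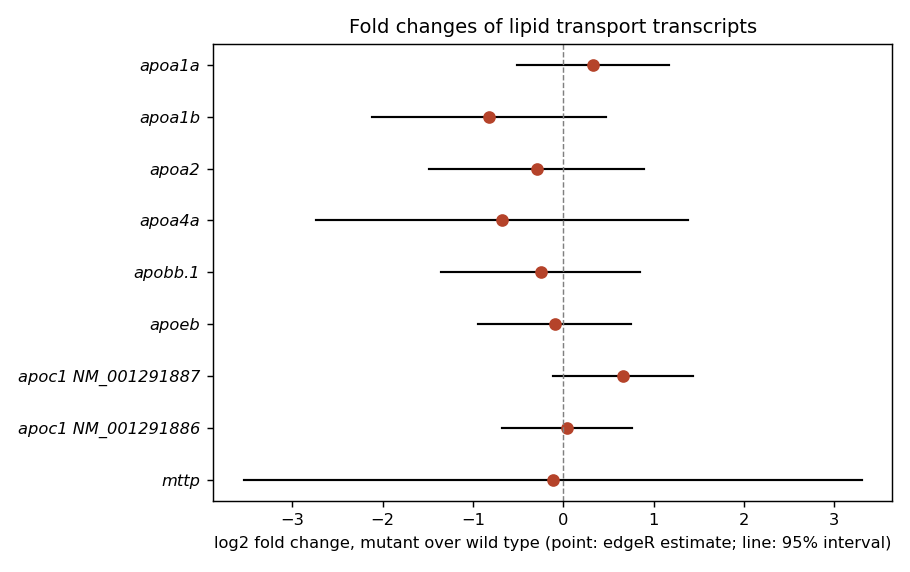
Log2 fold change of each lipid transport transcript in hnrnpul1/1l mutants over wild type, with points for the edgeR estimate and lines for its 95% interval. Every interval crossed 0, from apoa1b at -0.82 to apoc1 (NM_001291887) at 0.66, and the interval of mttp reached from -3.54 to 3.30.

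Pools of the same genotype differed widely in these genes. In mutants the highest pool exceeded the lowest 3.69-fold for apoa1b, 3.83-fold for apoa2 and 3.96-fold for apobb.1. The same ratio between wild-type pools was 2.39-fold for apoa1b, 2.49-fold for apoa2 and 1.92-fold for apobb.1. Among transcripts with a mean of at least 10 CPM, the SD of log2 CPM within a genotype had a median of 0.68 over 6 lipid transport genes and of 0.33 over all 8120. That of apoa1b, at 0.88, was above that of 93.5% of those transcripts, and that of apoc1, at 0.50 the lowest of the 6, above that of 75.5%.

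The same pools tended to be low and high. Mutant replicate 3 was the highest and mutant replicate 2 the lowest of the mutants for 5 of the 8 genes (apoa1a, apoa1b, apoa2, apobb.1 and apoc1), an order that 24.8% of all transcripts shared. Wild-type replicate 2 was the lowest wild type for 6 of the 8, and for 29.4% of all transcripts. Relative to the wild-type mean of each gene, the median deviation of the 8 genes was -0.25, -0.89 and 0.60 log2 units in mutants, against 0.38, -0.55 and 0.07 in wild type. The median fold change of the 8 genes accordingly moved to -0.75 without mutant replicate 3 and to 0.10 without mutant replicate 2.

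**Figure D4:**
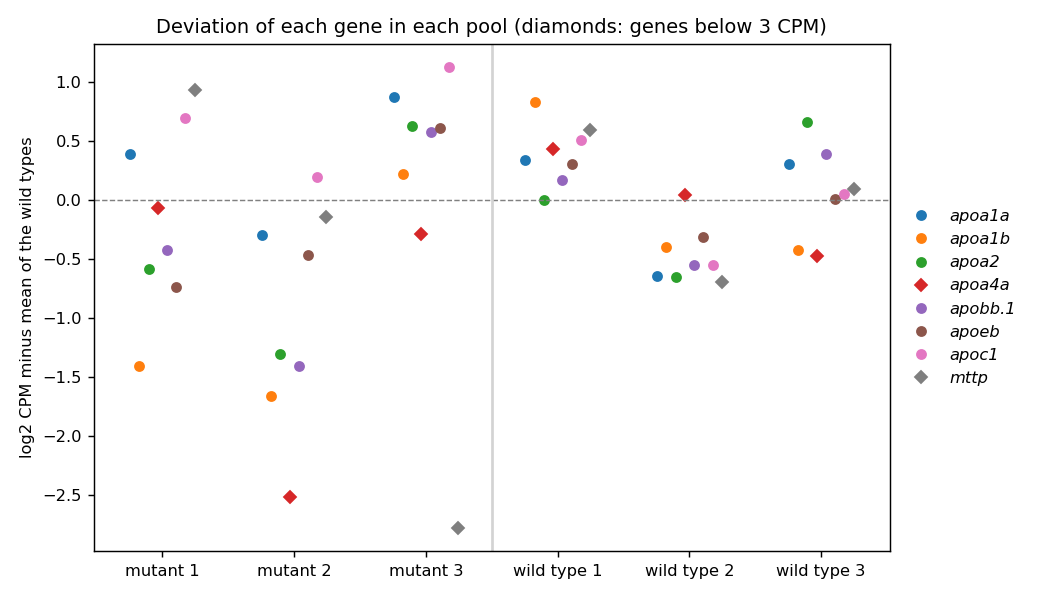
Deviation of log2 CPM (prior count of 2) from the mean of the wild types for each of the 8 genes in each pool, hnrnpul1/1l mutants left of wild types, with apoc1 shown by NM_001291887 and diamonds for apoa4a and mttp. Mutant replicate 3 lay mostly above 0, apart from apoa4a and mttp, and mutant replicate 2 mostly below it, apart from apoc1.

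Across the 6 libraries, log2 CPM of the genes other than mttp correlated positively, with a Pearson r above 0 for all 21 pairs, from 0.09 (apoa4a and apoc1) to 0.97 (apoa2 and apobb.1). apoc1 followed apoa1a (r = 0.90) more than apoa1b (r = 0.19). mttp, with its few counts, had r from -0.63 to 0.05 with the other 7 genes. These coefficients describe 6 libraries, and all genes of a library share its depth and scaling. The 2 genotypes are pooled in these coefficients. The 5 genes most like the mean standardised profile of the 8 genes were picked from 7755 others averaging at least 10 CPM. They were ndufs1 (r = 0.995), si:ch211-106n13.3 (r = 0.984), efna1b and ttyh2l (r = 0.982 each) and nap1l4a (r = 0.978), again over 6 libraries. Because these r were picked as the highest of 7755, their size is not a test of likeness. ndufs1, which encodes a subunit of mitochondrial complex I, followed the profile within a narrow range, with 136, 126 and 146 CPM in mutants and 144.5, 129.5 and 139.5 CPM in wild type.

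In the GRCz12tu assembly, apoeb, apoc1, apoc4, apoa2 and apoc2 follow each other in this order with no other listed gene between them, and apoa4b.2 lies next to apoeb. The log2 fold changes of these neighbours were 0.03 for apoa4b.2 (SE 0.44), -0.10 for apoeb (SE 0.37), 0.66 for apoc1 (SE 0.33) and -0.29 for apoa2 (SE 0.51). For both apoc1 transcripts summed it was 0.45 (SE 0.31). The signs of apoa4b.2, apoeb and apoa2 turned with single pools left out. apoc4 was too low to be tested, with 0, 0 and 0 counts in mutants, against 22, 15 and 0 counts in wild type.

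Further apolipoprotein genes were also without calls. Of 18 looked for, 14 had a row and 12 were tested, with a median log2 fold change of 0.05 that total-count scaling turned to -0.06. None was called, and 1 was higher and 1 lower at an unadjusted p below 0.05. Over all transcripts 8.79% passed that threshold in either direction, the share to set beside this and each later list. apoea, the other apolipoprotein E gene and a neighbour of apoa4a, had 83.1, 74.2 and 205 CPM in mutants, against 149, 55.9 and 118 CPM in wild type, and a log2 fold change of 0.17 (SE 0.48). apoa4b.1, of the A-IV class, had 36.4, 22.6 and 111 CPM in mutants, against 86.8, 47.1 and 101 CPM in wild type, and a log2 fold change of -0.47 (SE 0.57). In both, mutant replicate 3 was the highest of all pools, and the genotypes overlapped. The genes past the unadjusted threshold were apodb, higher by 1.47 on the log2 scale (adjusted p = 0.559 by edgeR), and apol1, lower at -1.25 (adjusted p = 0.547 by edgeR). Here and in the lists that follow, genes given because of an unadjusted p below 0.05 were chosen after their values were seen.

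Among genes for the assembly and secretion of lipoproteins, 21 of 29 were tested and none was called, with a median log2 fold change of -0.03. At an unadjusted p below 0.05, which 8.79% of all transcripts passed in either direction, 2 were higher and 1 lower. Those were the coat protein genes sec13 (0.46) and sec24c (-0.57), which act in export from the endoplasmic reticulum, and the disulphide isomerase gene pdia4 (0.62). sec24c had 57.8, 64.9 and 47.9 CPM in mutants, against 72.4, 98.3 and 83.4 CPM in wild type, without overlap (adjusted p = 0.522 by edgeR). sar1ab, which encodes a GTPase of the same coat, had the largest estimate at 10 CPM or more, 0.70 (SE 0.46), with overlapping pools.

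For lipases and lipid transfer proteins of the plasma, 8 of 15 genes were tested, none passed even the unadjusted threshold, and the median was 0.28. The 9 genes with a row summed to 183 CPM, 159 CPM and 228 CPM in mutants, against 173.5, 157 and 184 CPM in wild type, with mutant replicate 3 again the highest pool. The ends among the 3 genes of at least 10 CPM were lmf2b at 0.24 and angptl4, an inhibitor of lipoprotein lipase, at 0.02. Of 22 receptor and uptake genes, 14 were tested, with a median of -0.18. Only vldlr, the very low density lipoprotein receptor gene, passed the unadjusted threshold. It had 69.7, 101 and 75.5 CPM in mutants, against 106, 156 and 123 CPM in wild type, a log2 fold change of -0.64 (SE 0.23, adjusted p = 0.517 by edgeR). The study also listed lower retention of a vldlr intron in mutants, and the part of splicing in this estimate was not tested. The ends of that list at 10 CPM or more were the scavenger receptor genes scarb1 at 0.56 (SE 0.44) and scarb2a at -1.08 (SE 0.74), both with overlapping pools.

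Of the sterol and fatty acid transporter genes, 18 of 28 were tested, 4 were higher and none lower at an unadjusted p below 0.05 (8.79% of all transcripts in either direction), and the median was 0.08, which total-count scaling turned to -0.04. Those 4 included fabp7b, a fatty acid binding protein gene, with 26.6, 20.1 and 39.5 CPM in mutants, against 7.56, 8.52 and 14.6 CPM in wild type, without overlap. Its log2 fold change was 1.49 (SE 0.37, adjusted p = 0.406 by edgeR), and DESeq2 alone called it, with an adjusted p of 0.0321. The other 3 were fabp3 (0.64), the cholesterol efflux transporter gene abca1b (0.71) and npc2.1 (0.58). Copies of 2 of these genes differed little. abca1a had means of 95.8 CPM in mutants and 96.0 CPM in wild type (log2 fold change -0.003, SE 0.22). fabp7a had means of 1785 CPM in mutants and 1765 CPM in wild type (0.02, SE 0.24). The study's own unadjusted test of RPKM values, a different measure from these counts, listed fabp7a as lower in mutants. At 10 CPM or more, mfsd2ab had the smallest estimate, -0.33 (SE 0.19).

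The genes of cholesterol synthesis and lipid regulation had a median of -0.37, against -0.01 over all transcripts, and 18 of the 27 tested were lower, where 50.9% of all transcripts were. No gene was called, and 3 were lower and 1 higher at an unadjusted p below 0.05, which 8.79% of all transcripts passed in either direction. hmgcra, which encodes the rate-limiting reductase of cholesterol synthesis, had 6.20, 25.5 and 21.6 CPM in mutants, against 40.2, 36.6 and 37.3 CPM in wild type, without overlap. Its log2 fold change was -1.10 (SE 0.47, adjusted p = 0.559 by edgeR). The other reductase gene, hmgcrb, had 37.4, 39.1 and 36.4 CPM in mutants, against 33.55, 38.3 and 35.3 CPM in wild type. The pools of hmgcrb overlapped, with a log2 fold change of 0.08 (SE 0.20). srebf2, a sterol-sensing transcription factor gene, was at -0.54 and lss, which encodes a later enzyme of the same pathway, at -2.07 (SE 0.82). lss had few counts, 63, 27 and 27 in mutants, against 251, 70 and 270 in wild type (adjusted p = 0.548 by edgeR). All mutant pools lay below all wild types for 6 of the 27 genes and above them for 1. Over all transcripts those shares were 9.08% and 7.71%. The 6 included hmgcs1 (-0.51, SE 0.26), mvda (-0.69, SE 0.31) and acaca (-0.39, SE 0.20). Of other synthesis genes, cyp51 was nearly unchanged at 0.02 (SE 0.19) and idi1 was at 0.29 (SE 0.19), both with overlapping pools.

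creb3l3a encodes a transcription factor that in mammals regulates apolipoprotein genes, and was the gene of that list that was higher at an unadjusted p below 0.05. It had 27, 12 and 21 counts in mutants, against 0, 0 and 0 counts in wild type. Against a floor of 3 counts per wild-type library its mean CPM was 7.66-fold higher in mutants, a ratio that leaves out the spread between pools. The 95% interval of its log2 fold change was 0.51 to 14.3 (SE 2.81, adjusted p = 0.548 by edgeR). These are few counts, 0.322 to 0.454 CPM, and whether the parents of the groups differed at this gene was not tested. The related gene creb3l3l, of the same list, had 104.5, 123.7 and 98.1 CPM in mutants, against 159.9, 138 and 122.4 CPM in wild type. Its pools overlapped, with a log2 fold change of -0.37 (SE 0.20, adjusted p = 0.652 by edgeR). The study's own unadjusted test of RPKM values listed creb3l3l as lower in mutants. None of the 8 lipid transport genes was separated in the same pools, and regulation of these genes by creb3l3a or creb3l3l was not tested.

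Markers of the tissues that make lipoproteins were present unevenly. For the yolk syncytial layer, mxtx2 was at 0 counts in all 6 libraries, mxtx1 had 1, 26 and 7 counts in mutants, against 45, 0 and 0 counts in wild type, and hnf4a had 0, 0 and 0 counts in mutants, against 0, 35 and 47 counts in wild type. The summed level of the 12 genes of that list was 516, 548 and 741 CPM in mutants, against 527.5, 413 and 557.5 CPM in wild type, carried by ctsla, cpn1 and rbp4, which other tissues also express. Of the 8 genes tested, none was called, and the median was 0.08, which total-count scaling turned to -0.02. At an unadjusted p below 0.05, which 8.79% of all transcripts passed in either direction, none was lower and 2 were higher. Those 2 were cpn1 (0.67) and slc26a1 (0.69). Among genes of at least 10 CPM the ends were rbp4 at 0.75 (SE 0.53) and slc40a1, the iron exporter gene ferroportin, at -0.20 (SE 0.20). The vitellogenin genes vtg2, vtg4, vtg5, vtg6 and vtg7, which code for the yolk proteins made in the adult female liver, summed to at most 1.56 CPM in any pool, and the only one tested, vtg7, had overlapping pools.

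The 28 hepatocyte markers with a row summed to 477, 452 and 744 CPM in mutants, against 566, 375 and 471 CPM in wild type. Mutant replicate 3 was the highest pool in this sum too, as it was for the lipid transport genes, which with 1 transcript per gene summed to 1294, 917 and 2272 CPM in mutants, against 1905, 979 and 1515 CPM in wild type. rbp4, which is on both tissue lists, had 97.4, 91.0 and 259 CPM in mutants, against 83.6, 42.0 and 141 CPM in wild type. Without it the hepatocyte sums were 379.7, 361 and 485 CPM in mutants and 482, 333 and 331 CPM in wild type. The yolk syncytial layer sums without rbp4 were 418, 457 and 482 CPM in mutants, against 444, 371 and 417 CPM in wild type. The median log2 fold change of the 25 hepatocyte markers tested was 0.02, and -0.09 under total-count scaling, with 1 gene past the unadjusted threshold, hpda (-1.31), and none called. rbp4 had the largest estimate at 10 CPM or more, and the complement gene c3a.1 the smallest, -0.39. The part of hepatocyte content in the differences between pools was not tested.

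The 14 enterocyte markers summed to 100.1, 134 and 137 CPM in mutants, against 192, 150.0 and 124.5 CPM in wild type, with a median of -0.49 and no call. Only pdzk1 (-1.75) passed the unadjusted threshold, while vil1, the villin gene of the brush border, was at -1.13 (SE 0.50, adjusted p = 0.577 by edgeR) and fabp1b.1 at 0.73 (SE 0.33). For macrophages and microglia, which express apoeb and apoc1, the 17 markers with a row summed to 74.2, 64.7 and 85.0 CPM in mutants, against 108, 90.6 and 67.9 CPM in wild type. Among the 15 of them that were tested the median was -0.14 and none passed the unadjusted threshold. Only 2 markers of this list averaged at least 10 CPM, ccl34b.1 at -0.22 and cybb at -0.43. Of the 15 tested, 7 were higher and 8 lower. Below 10 CPM, mpeg1.1 (1.33, SE 0.71) alone lay entirely above wild type and ctss2.1 (-1.12, SE 0.85) alone entirely below. Over all transcripts those shares were 7.71% and 9.08%. Exocrine pancreas markers were low, with sums of 18.0, 18.8 and 12.9 CPM in mutants, against 18.5, 12.9 and 11.9 CPM in wild type. Of these sums ptf1a alone made up 12.3, 13.0 and 5.71 CPM in mutants, against 2.65, 4.58 and 3.99 CPM in wild type. Similar sums therefore do not mean similar levels of the other markers. Of the 9 pancreas markers tested, 6 were lower and 3 higher, none was called and the median was -0.55. At an unadjusted p below 0.05, which 8.79% of all transcripts passed in either direction, prss1 (-1.66) was lower and ptf1a (1.47) higher.

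**Figure D5:**
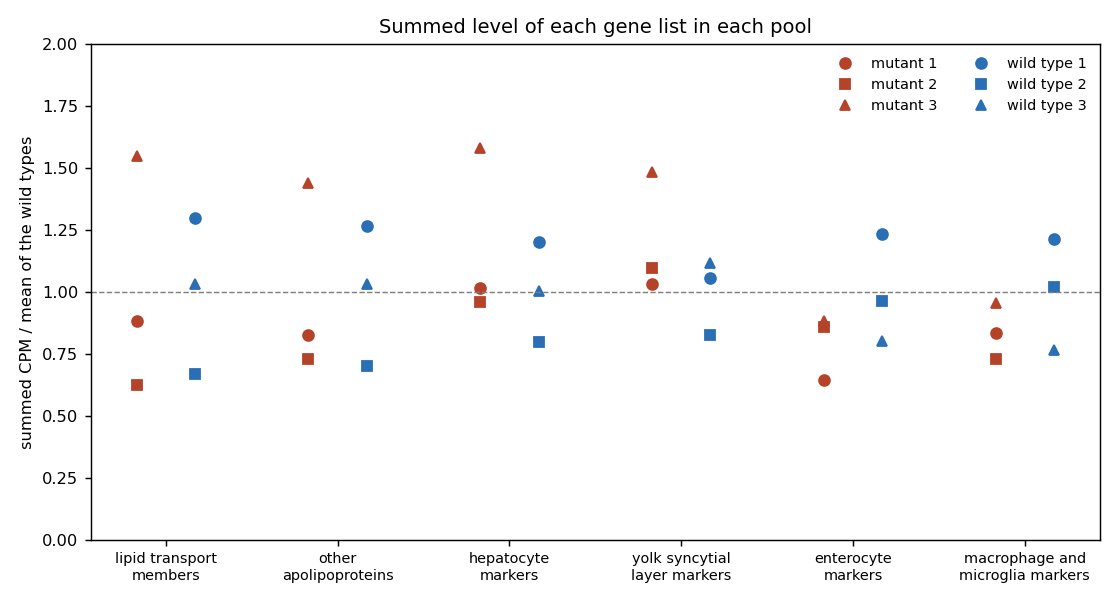
Summed CPM of 6 of the gene lists, each divided by its mean in the wild types (axis from 0, dashed line at 1), per pool, with hnrnpul1/1l mutants left of wild types in each column. Mutant replicate 3 was the highest pool for the lipid transport genes (2272 CPM), the other apolipoprotein genes (544.5 CPM), the hepatocyte markers (744 CPM) and the yolk syncytial layer markers (741 CPM), but not for the enterocyte or macrophage and microglia markers. rbp4, with 259 CPM in that pool, is on both the hepatocyte and the yolk syncytial layer list.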

How the data were processed

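The authors deposited, library by library, estimated counts of RefSeq transcripts, with no adjustment to depth or length. The submitters' processing notes name kallisto 0.42.4, bcl2fastq 2.20.0.422 and danRer10, with no role stated. The RefSeq release is not given in the sources used here. Between 15.8% and 18.3% of the values per library were fractional, and all were rounded. Symbols came from the RefSeq gene table of GRCz12tu, which paired 14740 of 15455 transcripts with 14315 genes. Which genes lie side by side was read from that table too. Transcript lengths were not used, so levels of different genes are not compared. A gene is represented by its most abundant transcript.

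Mutants were compared with wild types with edgeR 4.0.16 in R 4.3.3 (filterByExpr, TMM, quasi-likelihood test, no covariate, Benjamini-Hochberg over 13553 transcripts, calls below 0.05). The standard error is the log2 fold change divided by the square root of F, and the 95% interval uses the fit's degrees of freedom. The study tested RPKM values, which were not used here, so a count model over the same samples replaced that test. Whether pools of a genotype came from separate clutches is not stated, so p-values measure the spread between these pools only. The fit was tested on simulated data.

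Alternatives were RLE and total-count scaling, DESeq2 1.42.0, limma-voom (limma 3.58.1), no filter, a minimum mean of 5 CPM, transcripts added up per gene, a replicate block and each library left out. The genes and the 12 other lists were chosen with earlier results of these data known. Total-count scaling lowers the median of all transcripts, so list medians near 0 turn with it. From each list, the genes with the largest and smallest fold change at a mean of at least 10 CPM are named, with any called gene, all 8 lipid transport genes, hnrnpul1 and the 5 genes whose profile was most like theirs. A gene that this rule names is not reported here.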

Additional observations from a re-analysis of the deposited data

How the results depend on the processing

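Under RLE and total-count scaling, DESeq2, limma-voom, no filter, a mean CPM of at least 5 (which left 6 of the 8 genes) and counts summed per gene, no lipid transport gene was called or had an unadjusted p below 0.05, and each gene kept its sign. The median log2 fold change of the genes was -0.41 to -0.16 under these settings and -0.42 with a replicate block. Total-count scaling moved the median of all transcripts to -0.13, and that of the genes to -0.31. The number of transcripts called over the whole table was 0 in edgeR but 210 in DESeq2, and 0 to 1 with each library left out in turn. With the replicate block, 1 lipid transport gene had an unadjusted p below 0.05, apoc1 (log2 fold change 0.67, adjusted p = 0.442 by edgeR), and none was called. Deviations of same-numbered mutant and wild-type libraries correlated at -0.09, 0.13 and 0.38, and those of differently numbered libraries at -0.37 to 0.23. These values do not settle whether the numbers pair the pools. The sample labels do not say so, and the main fit had no block. With each library left out in turn, 0 to 2 genes had an unadjusted p below 0.05. These were apoc1 without mutant replicate 2 (0.90) or wild-type replicate 1 (0.94), and apoa1b (-1.66) and apoeb (-0.62) without mutant replicate 3, none with an adjusted p below 0.05. The median ranged from -0.75 to 0.10. The sign turned for apoa2 (-1.01 to 0.10), apobb.1 (-0.89 to 0.15), apoeb (-0.62 to 0.19) and mttp (-1.12 to 0.42), and the cause was not tested. Counts of apoa4a and mttp were low, with as few as 13 and 3 in a library.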
